A study of Mus musculus with 6 samples.

Results

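Deleting a gene pair leaves its chromosomal neighbours in place, and 9 protein-coding genes on chromosome 4 that flank the deleted natriuretic peptide genes Nppa and Nppb were examined, out of 21887 protein-coding genes in the RefSeq table. In order of distance from the interval between the start of Nppb and the end of Nppa, they were Clcn6, 2510039O18Rik, Plod1, Agtrap, Mfn2, Miip, Fbxo6, Fbxo44 and Fbxo2. They were taken as a list by name, chosen with earlier results of these data known. A called peak was assigned to a gene when it overlapped the gene body or the 5 kb on either side of it. The measurement was CUT&RUN, in which an antibody directs a nuclease to cut out the chromatin it binds, for histone H3 acetylated at lysine 27 (H3K27ac). All 6 libraries came from nuclei of the left ventricle sorted with an antibody to PCM-1, a protein of cardiomyocyte nuclei, in FVB mice of 8 to 12 weeks. The 3 WT libraries are labelled wild type, and the 3 HOM libraries carry the CRISPR deletion of Nppa and Nppb. The growth notes also name Myh6-MerCreMer, nTnG and Sun1/sfGFP mice on FVB/N, without saying which libraries carried those alleles. The ends of the deletion and the number of founder lines are not given in the labels used here, so the interval from Nppb to Nppa (chr4:147985786-148002074, mm10) stands in for the deleted segment.

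H3K27ac marks promoters and enhancers that are in use, and broad runs of it lie over genes that a cell type transcribes strongly. Nppa and Nppb encode atrial and B-type natriuretic peptide, hormones that the heart releases when it is stretched. Their neighbours have unrelated roles. Clcn6 encodes a chloride and proton exchanger of late endosomes, Agtrap a membrane protein that binds the type 1 angiotensin II receptor, and Plod1 a lysyl hydroxylase that modifies collagen. Mfn2 encodes mitofusin 2, a GTPase of the outer mitochondrial membrane needed for mitochondrial fusion, and Miip a protein first described as an inhibitor of cell migration and invasion. Fbxo2, Fbxo6 and Fbxo44 are adjacent genes of F-box proteins, which pick substrates for SCF ubiquitin ligases, and the first pair of these bind N-linked glycans.

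The lists differed greatly in length. WT replicates 1, 2 and 3 held 21340, 72362 and 106605 peaks, and the HOM replicates in the same order held 48102, 1462 and 15184. Because the lists hold no read counts, the sequencing depth behind them is unknown, and no interval for counting error can be given. HOM replicate 2 stood apart. It had 58 peaks on chromosome 4 and none between positions 147431535 and 149757064, a gap that takes in all 9 windows. At least 1 peak fell in the window of 2.08% of protein-coding genes in that library, against 18% to 56.6% in the other 5, so its zeros below say nothing about the deletion. Means and SDs below include it, and the differences in covered share are given with and without it. The 7 cardiomyocyte markers examined had a peak in every library except HOM replicate 2, which had 0 of 7, and 3 fibroblast markers had none in any library. Of the 3 endothelial markers 1 or 2 had a peak in the 5 other libraries, Cdh5 never did, and among the immune markers Ptprc never did and Cd68 did in 4 libraries. The marker sums in covered bp per Mb ranged from 1509 to 1774 for cardiomyocyte genes outside HOM replicate 2, and outside that library those of the endothelial genes ranged from 38 to 56.5. The sums of the immune genes were 0, 27.7 and 44.9 in WT against 11.3, 0 and 102 in HOM, and Myh11, of smooth muscle, had a peak in WT replicates 2 and 3 only. The part of other cell types in the gene results below was not tested. WT replicate 1 and HOM replicate 1 carried 149 and 156 peaks on the Y chromosome, against 18 to 44 in the other 4 libraries. The labels give no sex for the mice, and its part in the results was not tested.

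Inside the interval the WT lists covered 321, 734 and 2175 bp and the HOM lists 0, 0 and 0 bp, which is the direction the genotype labels give. In the 9 windows the 6 lists held 177 peaks, 20, 41 and 53 in WT replicates 1, 2 and 3, and 49, 0 and 14 in the HOM replicates in the same order. The windows of Plod1, Mfn2, Miip and 2510039O18Rik overlap in a chain, as do those of Fbxo6, Fbxo44 and Fbxo2, so the 177 peaks gave 223 assignments of a peak to a gene. Peaks that touched across libraries merged into 55 regions. Of these, 19 were found in libraries of both genotypes, 33 in WT only and 3 in HOM only. A single library accounted for 31 of the regions, and for 21 of those 31 it was WT replicate 3, the longest list.

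**Figure D1:**
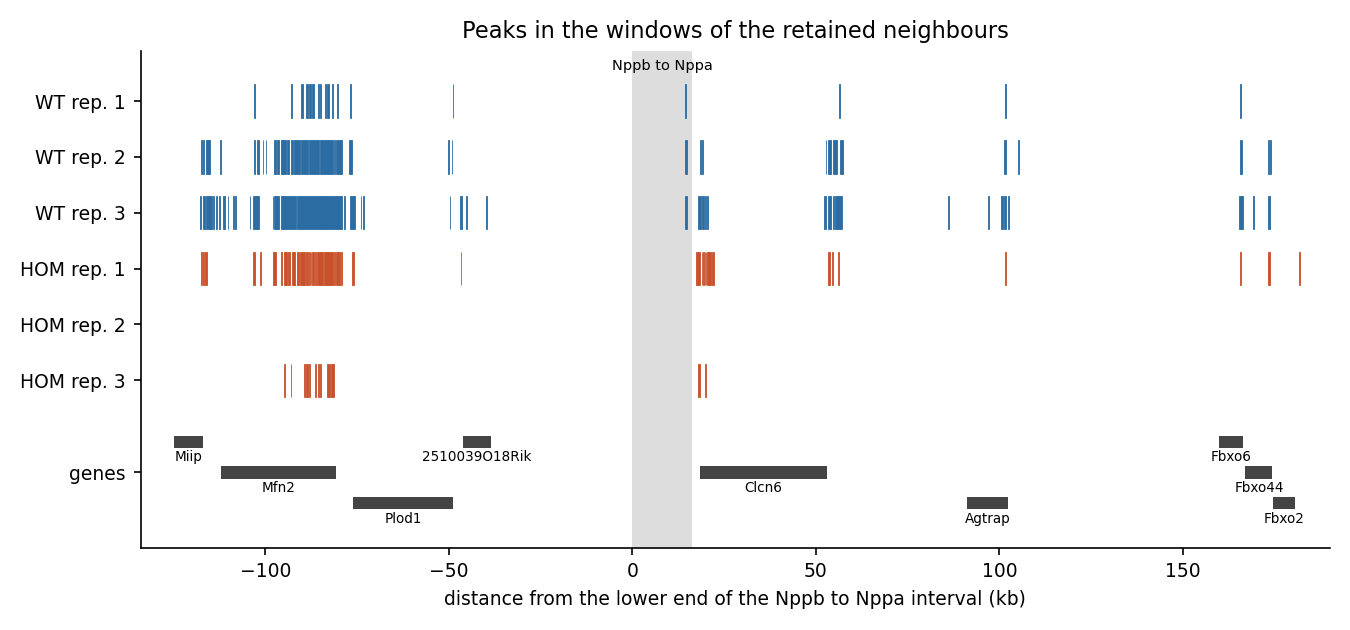
Called peaks in the 9 gene windows by library (rows; blue WT, red HOM) against distance in kb from the lower end of the Nppb to Nppa interval (grey), with gene bodies as dark bars. Peaks are drawn to scale with a thin outline, and peaks outside the windows are not drawn. The densest run of peaks lies over Mfn2 in the 5 libraries with peaks, the interval has peaks in WT rows only, and the row of HOM replicate 2 is empty.

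The start regions of 4 genes are printed because the acetylation described below borders or enters them. Each is the RefSeq promoter window of GRCm38.p6, which is mm10, 250 bases before to 50 after an annotated start, read along the gene's own strand. All 4 genes lie on the minus strand. Capitals mark bases inside a called peak of at least 1 library. Mfn2, Agtrap and Fbxo6 had a peak within 1 kb of a start in at least 4 of the 6 libraries, and Clcn6 is the gene nearest to the deletion. Mfn2 and Fbxo6 each have 3 annotated starts, and the window shown was picked after the values were seen. For Mfn2 it is the start farthest upstream, which holds the gap between peaks, and for Fbxo6 it is the start with the most bases inside peaks.
Mfn2, chr4:147904860-147905159: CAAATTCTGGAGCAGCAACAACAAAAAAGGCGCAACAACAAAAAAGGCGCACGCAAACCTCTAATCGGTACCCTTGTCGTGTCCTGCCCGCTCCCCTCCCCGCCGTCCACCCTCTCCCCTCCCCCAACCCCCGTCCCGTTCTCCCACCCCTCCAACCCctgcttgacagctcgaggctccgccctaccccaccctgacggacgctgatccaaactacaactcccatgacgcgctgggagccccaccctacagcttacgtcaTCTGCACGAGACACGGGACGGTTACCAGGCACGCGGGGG
Agtrap, chr4:148088015-148088314: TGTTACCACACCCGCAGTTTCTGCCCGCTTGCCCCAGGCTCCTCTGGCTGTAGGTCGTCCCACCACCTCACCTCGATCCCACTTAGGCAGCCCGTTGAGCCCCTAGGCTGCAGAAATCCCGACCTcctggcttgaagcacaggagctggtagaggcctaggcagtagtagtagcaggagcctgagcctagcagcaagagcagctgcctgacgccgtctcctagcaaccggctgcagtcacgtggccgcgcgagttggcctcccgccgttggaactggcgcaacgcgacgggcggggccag
Fbxo6, chr4:148151876-148152175: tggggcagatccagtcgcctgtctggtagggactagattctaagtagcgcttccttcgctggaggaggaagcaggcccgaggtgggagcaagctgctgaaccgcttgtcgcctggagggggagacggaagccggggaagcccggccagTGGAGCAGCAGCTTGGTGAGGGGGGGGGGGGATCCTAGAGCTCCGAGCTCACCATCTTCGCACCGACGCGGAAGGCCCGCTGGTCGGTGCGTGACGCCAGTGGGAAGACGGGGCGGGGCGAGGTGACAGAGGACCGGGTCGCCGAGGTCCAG
Clcn6, chr4:148038764-148039063: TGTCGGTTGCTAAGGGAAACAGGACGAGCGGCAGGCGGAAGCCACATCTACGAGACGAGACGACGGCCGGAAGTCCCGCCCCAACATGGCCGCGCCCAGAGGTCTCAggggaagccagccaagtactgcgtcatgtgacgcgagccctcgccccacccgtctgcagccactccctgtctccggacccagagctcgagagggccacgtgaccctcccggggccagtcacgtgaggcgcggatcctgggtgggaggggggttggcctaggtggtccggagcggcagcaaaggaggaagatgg

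In the Mfn2 window the lower-case stretch is the chromatin around the annotated start at position 147904909, which no list called, and the capitals on both sides of it are the facing edges of the peaks before and after the start. In Agtrap the capitals come from WT replicate 3 alone and lie before the start, while the peak shared by 4 libraries lies inside the gene, downstream of the printed bases. In Fbxo6 the capitals come from WT replicates 2 and 3, with 107 and 152 bases, and in Clcn6 from WT replicate 3, with 107 bases. The 4 printed windows hold 22, 20, 24 and 26 CpG dinucleotides in Mfn2, Agtrap, Fbxo6 and Clcn6, against a median of 7 over 32851 promoters of the same length. The windows of the other starts hold 27 and 31 in Mfn2 but 5 and 10 in Fbxo6. The letters GGGCGG, searched on both strands, occurred 1 time in each of the 4 printed windows and in none of the windows at the other starts of Mfn2 and Fbxo6, and 35.7% of all promoters hold them. The letters CCAAT (37.4% of all promoters), AAGGTCA (4.72%), TATAAA (13.6%) and GATAA (25.4%) were not in any of the 4 printed windows, while GATAA occurred 1 time in each of the other Fbxo6 windows.

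Clcn6, which lies 2.19 kb above the interval and is transcribed toward it, had acetylation at both ends and none between. Its peaks numbered 2, 9 and 10 in WT replicates 1, 2 and 3, and 12, 0 and 2 in the HOM replicates in the same order. They covered 544, 3658 and 6153 bp in WT and 4273, 0 and 699 bp in HOM. No list had a peak in the 28555 bp of the gene body from 148009259 to 148037813. The 5 kb window at the 3′ end reaches 2816 bp into the interval, where WT replicates 1, 2 and 3 had 321, 509 and 571 bp covered. Part of the WT signal assigned to Clcn6 therefore lies inside the interval that stands in for the deleted segment. Without those bases the WT values were 223, 3149 and 5582 bp.

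Outside the interval, covered length lay more toward the interval in replicates 1 and 3 of HOM, and more toward the start of Clcn6 in WT. The difference was not tested. In the 2184 bp between the interval and the gene, peaks covered 0, 159 and 647 bp in WT and 1179, 0 and 499 bp in HOM. In the adjoining 5000 bp of the gene they covered 0, 395 and 1220 bp in WT and 2194, 0 and 200 bp in HOM. HOM replicate 1, with a list shorter than those of WT replicates 2 and 3, therefore had the longest covered length of all 6 libraries on both of these stretches. Before the start of Clcn6, in contrast, the 5000 bp held 223, 2426 and 3107 bp in WT against 900, 0 and 0 bp in HOM, and the last 1000 bp of the gene held 0, 169 and 608 bp in WT and none in HOM. HOM replicate 3 had both of its Clcn6 peaks at the end that faces the deletion, but its 499 and 200 bp there were inside the WT ranges.

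The strongest Clcn6 peak by the authors' fold enrichment lay at a different place in each genotype. In HOM replicate 1 it was at chr4:148005432-148005691, 260 bp wide with a fold of 7.17, and stood at rank 1800 of 48102 (3.74% from the top of its list). In HOM replicate 3 it was at chr4:148003714-148004212, 499 bp wide with a fold of 5.04, at rank 4440 of 15184 (29.2%). The strongest WT peaks lay inside the interval, at chr4:148000146-148000466, chr4:148000052-148000560 and chr4:148000077-148000647 in replicates 1, 2 and 3, at 21.8%, 22.5% and 14.5% from the top, and in replicates 2 and 3 they tied with peaks before the start of the gene. Many peaks of a list share a fold (2861 in WT replicate 1 at the fold of this peak), and tied peaks were given the best rank of the tie. Outside the interval the strongest WT peaks all lay before the gene's start, at 35.2%, 22.5% and 14.5%. Ranks come from lists of unequal length and show no change by themselves.

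**Figure D2:**
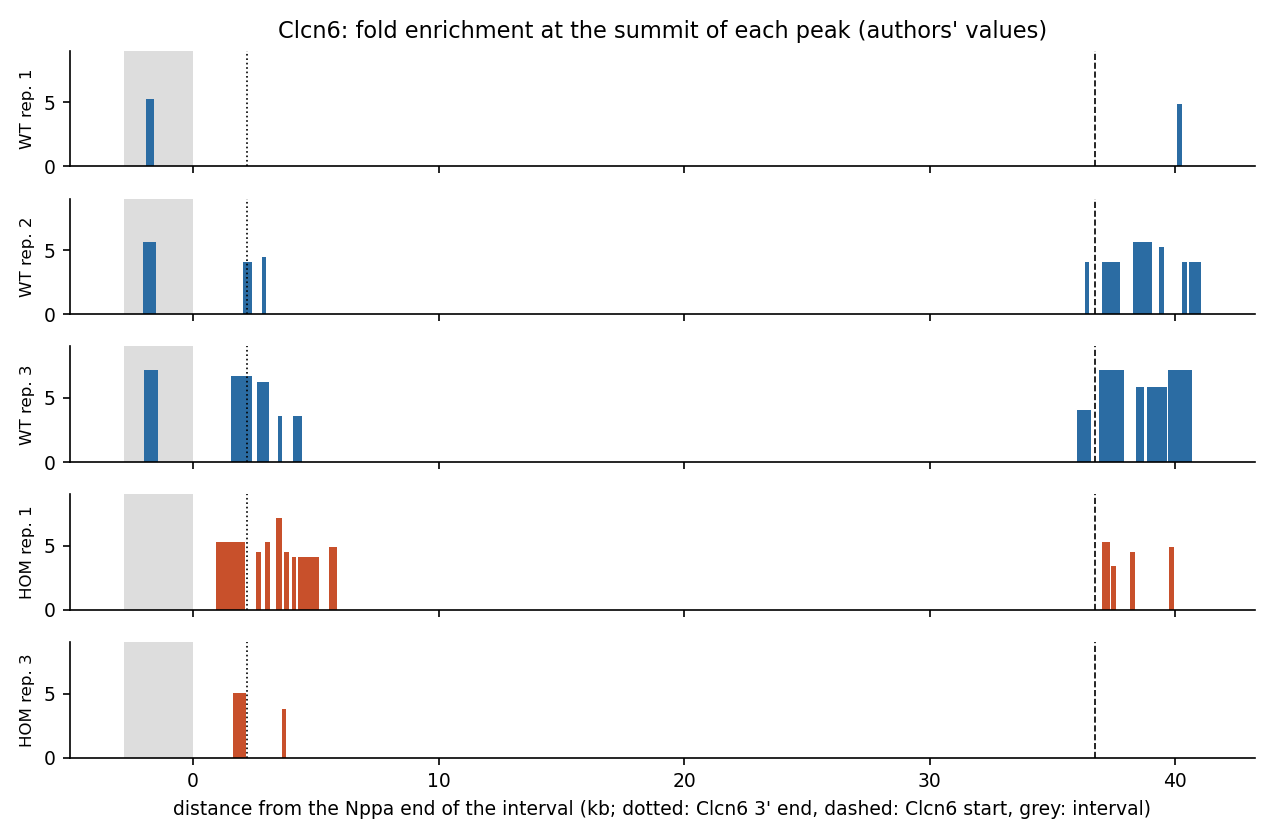
Peaks of the Clcn6 window in the 5 libraries that had any (blue WT, red HOM), as bars whose width is the peak and whose height is the authors' fold enrichment at the summit, against distance in kb from the Nppa end of the interval (grey). All 5 libraries leave the 28555 bp inside the gene empty, and HOM replicate 3 has its 2 peaks next to the interval.

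To set libraries of unequal length side by side, covered length was divided by the length covered genome wide in the same list (covered share, in bp per Mb). The covered share can still follow list length. In WT lists covering 6.69, 31.6 and 55.7 Mb it was 693, 601 and 444 for Mfn2, while for Clcn6 it was lowest in the shortest WT list. The part of list length in the shares below was not tested. For Clcn6 the covered share was 81.3, 116 and 111 for WT and 248, 0 and 154 for HOM. HOM replicates 1 and 3 were above all WT libraries and HOM replicate 2 was below them. WT averaged 103 ± 18.5 and HOM 134 ± 125 (SD, n = 3 per genotype), which differ by 31.6 that was smaller than the HOM spread (two-sided exact permutation p = 0.7, Benjamini-Hochberg adjusted p = 1 over all genes tested). Without HOM replicate 2 the difference was 98.7 bp per Mb (exact permutation p = 0.1, the smallest that 3 against 2 libraries allow), and without HOM replicate 1 it turned to -25.6. With the bases of the interval left out of the window, the means were 77.7 for WT and 134 for HOM, a difference of 56.4 (exact permutation p = 0.5). The other 5 lists were also limited to their 15184 strongest peaks, which still covered from 4.54 to 24.4 Mb. Clcn6 then had 544, 0 and 0 bp in WT and 1950 and 699 bp in replicates 1 and 3 of HOM. Of the 544 bp, 321 lie inside the interval. The zeros depend on unequal cutoffs. WT replicate 2 kept no fold under 6.04, and its strongest Clcn6 peak had 5.64. WT replicate 3 kept none under 7.62, and its strongest had 7.17. HOM replicate 3 kept Clcn6 peaks with folds of only 5.04 and 3.78. A loss in WT cannot be read from these zeros.

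Mfn2 lies 80.9 kb below the interval and had a longer covered length than any other of the 9 genes in each of the 5 libraries with peaks. Its window, chr4:147868586-147909909, held 15, 23 and 27 peaks in WT and 32, 0 and 12 in HOM. Covered length was 4634, 18990 and 24709 bp in WT and 14133, 0 and 4012 bp in HOM, or 11.2%, 46%, 59.8%, 34.2%, 0% and 9.71% of the window. Among protein-coding genes ranked by covered length per kb of window, Mfn2 stood 0.507%, 0.228% and 0.375% from the top in WT, and 0.164% and 0.352% in replicates 1 and 3 of HOM. It held 65%, 43.9% and 28.3% of the peaks of all 9 windows in WT, and 51% and 85.7% in replicates 1 and 3 of HOM, counting its gene body alone.

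The acetylation of Mfn2 was concentrated downstream of its start. The gene body was cut at its midpoint, and the part next to the start, chr4:147889248-147904909, was covered to 24.5%, 84.1% and 94.8% in WT and to 64.5%, 0% and 25.6% in HOM. The part next to the 3′ end was covered to 2.12%, 12.7% and 27.7% in WT and to 9.98%, 0% and 0% in HOM. In all 5 libraries with peaks the start part was covered more than the end part. The merged region chr4:147889955-147904898, 14944 bp long, was the only one of the 55 found in 5 libraries. It was broken into 12, 9 and 4 peaks in WT replicates 1, 2 and 3, and into 22 and 12 in replicates 1 and 3 of HOM. The widest of these peaks was 481, 3686 and 6209 bp in WT, and 1072 and 758 bp in replicates 1 and 3 of HOM, and WT replicate 3, the longest list, had the fewest and widest peaks over the region.

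No list had a peak over the annotated start of Mfn2 farthest upstream. The other annotated starts, at 147904661 and 147904698, both lay inside a peak of WT replicate 3. The start at 147904661 also lay inside a peak of HOM replicate 1. The gap around position 147904909 was 1017, 395 and 162 bp in WT and 336 bp in HOM replicate 1. The stretch chr4:147904899-147905001, 103 bp, was free of peaks in all 5 lists and is the lower-case part of the Mfn2 sequence above. In HOM replicate 3 the gap ran for 57608 bp, since that list had no peak in the 5 kb before the start, where the others covered 9.16%, 45.8% and 58% (WT) and 34.7% (HOM replicate 1).

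**Figure D3:**
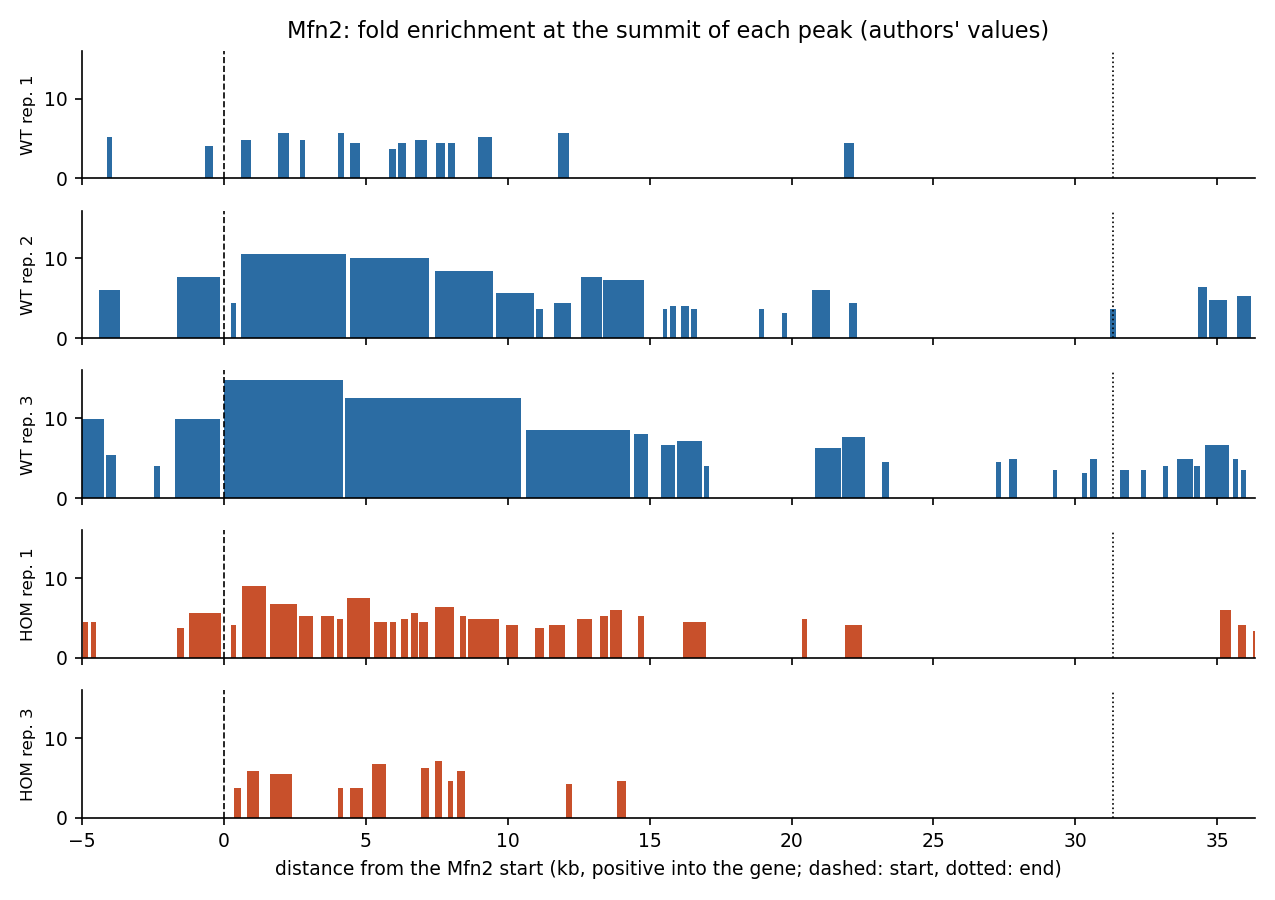
Peaks of the Mfn2 window in the 5 libraries that had any (blue WT, red HOM), as bars whose width is the peak and whose height is the authors' fold enrichment at the summit, against distance in kb from the start (dashed) into the gene. In every row the covered length is greater in the part of the gene next to the start, and the gap at the dashed line is 162 bp in WT replicate 3 and 1017 bp in WT replicate 1.

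The strongest Mfn2 peak lay near the top of most lists. It was chr4:147900722-147904898 in WT replicate 3, 4177 bp wide with a fold of 14.8, at rank 621 of 106605 (0.583% from the top). In WT replicate 2 it was chr4:147900612-147904297, 3686 bp wide, at 0.829%, and in HOM replicate 1 chr4:147903421-147904273, 853 bp wide with a fold of 9.06, at 0.651%. The summits of these 3 peaks lay 1039, 1021 and 871 bp into the gene. In HOM replicate 3 it was chr4:147897237-147897466, 230 bp wide, at 2.58%, and in WT replicate 1 chr4:147892739-147893154, 416 bp wide, at 13.7%, with summits 7611 and 12007 bp into the gene. In WT replicate 1 this peak tied in fold with 2 others, whose summits lay 2057 and 4141 bp into the gene, and the position shown is 1 of the 3.

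The covered share of Mfn2 stood at 693, 601 and 444 bp per Mb for WT and 822, 0 and 883 for HOM. HOM replicates 1 and 3 were again above all WT libraries. WT averaged 579 ± 126 and HOM 568 ± 493 (SD, n = 3 per genotype), which differ by -10.7 (exact permutation p = 1, adjusted p = 1), and without HOM replicate 2 the difference turned to 274 (exact permutation p = 0.2). With 5 lists at equal peak number the covered length was 4109, 13890 and 17756 bp in WT and 7107 and 4012 bp in HOM, with no separation of the genotypes. The covered share was 769, 956 and 728 for WT and 829 and 883 for HOM. When every list was limited to 1462 peaks, the length of the shortest, Mfn2 still had 6467 and 4177 bp in replicates 2 and 3 of WT, with 853 bp in HOM replicate 1 and 991 bp in HOM replicate 3. Plod1 had 146 bp there, in WT replicate 3 from the same Mfn2 peak, and the other 7 genes had no peak in any list.

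Plod1 lies between Mfn2 and the interval, 49 kb from it, and its window takes in the 5 kb before the start of Mfn2. It had 3, 4 and 10 peaks covering 638, 2669 and 4674 bp in WT, and 5, 0 and 0 peaks covering 1901, 0 and 0 bp in HOM. Most of that length lay at the Mfn2 side. The regions chr4:147905002-147906651 and chr4:147908566-147910084 were each found in 3 WT libraries and in HOM replicate 1, and the strongest Plod1 peak lay at the Mfn2 side in WT replicates 2 and 3 and HOM replicate 1. At its own start, position 147936776, Plod1 had a peak within 1 kb in 3 WT libraries and in no HOM library, but at positions that did not overlap between the 3. They were chr4:147936815-147936994 in WT replicate 1, chr4:147935592-147935803 and chr4:147936528-147936692 in WT replicate 2, and chr4:147936023-147936194 in WT replicate 3, all between 165 and 212 bp wide. The covered share of the window was 95.3, 84.4 and 84 for WT and 111, 0 and 0 for HOM (difference -51.1, exact permutation p = 0.4, adjusted p = 0.856), so HOM replicate 1 was above every WT library and the other HOM libraries were at 0. Leaving out HOM replicate 2 gave a difference of -32.6 (exact permutation p = 0.7).

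The gene 2510039O18Rik, 38.5 kb below the interval, had little acetylation. It had 1, 2 and 4 peaks covering 180, 377 and 1325 bp in WT, and 1, 0 and 0 peaks covering 166, 0 and 0 bp in HOM. The peaks of WT replicates 1 and 2 are those at the Plod1 start, on the other side of the shared window. A peak within 1 kb of its start in the promoter table, position 147940895, was found in WT replicate 3 only. It was chr4:147940387-147940781, 395 bp wide and 36.4% from the top. The gene body begins upstream of that start, at 147939519. The only region of its window found in 2 libraries, chr4:147938729-147939275, lay just before the beginning of the body, in WT replicate 3 and HOM replicate 1. Its covered share was 26.9, 11.9 and 23.8 for WT and 9.65, 0 and 0 for HOM, so all WT values were above all HOM values, the lowest WT value by a small margin. This rests on the width of the flanks. With flanks of 0 kb the means were 3.63 for WT and 0 for HOM, with flanks of 2 kb they were 6.9 and 3.22, and the exact permutation p was 1 in both cases. WT averaged 20.9 ± 7.91 and HOM 3.22 ± 5.57 (SD, n = 3 per genotype), and the difference of -17.7 gave p = 0.1 in the exact permutation test, its lowest attainable value, and an adjusted p of 0.856. When HOM replicate 2 was left out, the difference was -16 (exact permutation p = 0.2).

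Agtrap, 75 kb above the interval, had 1 recurrent site. The region chr4:148087105-148087692, inside the gene just downstream of its start at 148088064, was covered over 177, 588 and 545 bp in WT and over 213 bp in HOM replicate 1. Its peak ranked 75.6%, 22.5% and 20.2% from the top in WT and 79.8% in HOM replicate 1, with folds of 4.03, 5.64, 6.27 and 3.77. WT replicate 3 had 4 further peaks in the window and WT replicate 2 had 1, none of them shared. The covered share was 26.5, 23.8 and 23 for WT and 12.4, 0 and 0 for HOM. The WT values were close to each other, and all HOM values were lower. This separation rests on the scaling. In bp HOM replicate 1 had more than WT replicate 1 (213 against 177), in lists that covered 17.2 and 6.69 Mb genome wide. WT averaged 24.4 ± 1.82 and HOM 4.13 ± 7.15 (SD, n = 3 per genotype), which differ by -20.3 (exact permutation p = 0.1, adjusted p = 0.856), and without HOM replicate 2 it was -18.2 (exact permutation p = 0.1). With 5 lists at equal peak number Agtrap had no peak in any of them.

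Fbxo6, 144 kb above the interval, showed the same order of genotypes at a narrow site near its starts. The region chr4:148151181-148151618 was covered over 377, 392 and 381 bp in WT and over 190 bp in HOM replicate 1. The peak stood 54.1%, 3.81% and 8.89% from the top in WT, with folds of 4.44, 8.46 and 8.51, and 45.1% in HOM replicate 1, with a fold of 4.53. A second region, chr4:148151637-148152027, lay beside it in WT replicates 2 and 3 and enters the printed Fbxo6 sequence. The covered share of Fbxo6 was 56.3, 22.8 and 18.6 for WT and 11, 0 and 0 for HOM, without overlap. WT averaged 32.6 ± 20.7 and HOM 3.68 ± 6.38 (SD, n = 3 per genotype), which differ by -28.9 (exact permutation p = 0.1, adjusted p = 0.856), and without HOM replicate 2 by -27.1 (exact permutation p = 0.2). With 5 lists at equal peak number the Fbxo6 site kept 377, 392 and 381 bp in WT and had no peak in replicates 1 and 3 of HOM. The lowest fold kept was 4.44 in WT replicate 1 and 5.28 in HOM replicate 1. The HOM replicate 1 peak was therefore dropped although its fold was above that of the WT replicate 1 peak.

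Fbxo44 and Fbxo2 share a second site, chr4:148158881-148159874, which was covered over 0, 616 and 675 bp in WT and 506 bp in HOM replicate 1. It takes in 1 of the 3 annotated starts of Fbxo44, ends close to another, and lies before the start of Fbxo2. The window of Fbxo44 also takes in the Fbxo6 site, so its covered share was 56.3, 42.3 and 30.8 for WT and 40.5, 0 and 0 for HOM. HOM replicate 1 was inside the WT range, and the difference was -29.6 (exact permutation p = 0.2, adjusted p = 0.856), or -22.9 without HOM replicate 2 (exact permutation p = 0.4). Fbxo2 had 0, 2 and 1 peaks in WT and 2, 0 and 0 in HOM, none of them on its gene body. Beside the shared site it had a peak of 167 bp at chr4:148167482-148167648, beyond the 3′ end, in HOM replicate 1. Its covered share was 0, 19.5 and 12.1 for WT and 39.1, 0 and 0 for HOM (difference 2.51, exact permutation p = 1, adjusted p = 1). For Fbxo2 the difference without HOM replicate 2 was 9.03 (exact permutation p = 0.7).

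Miip, 117 kb below the interval, had all of its peaks near its start or before it, and most of them lie in the stretch that its window shares with the window of Mfn2. It had 0, 5 and 9 peaks covering 0, 1963 and 3003 bp in WT, and 3, 0 and 0 peaks covering 1045, 0 and 0 bp in HOM. The regions chr4:147867995-147868639, chr4:147868719-147869354 and chr4:147869410-147870711 were each present in WT replicates 2 and 3 and in HOM replicate 1. The strongest peak stood 13.9% and 17.1% from the top in WT replicates 2 and 3 and 11.3% in HOM replicate 1. The covered share was 0, 62.1 and 53.9 for WT and 60.8, 0 and 0 for HOM (difference -18.4, exact permutation p = 0.7, adjusted p = 1), and the genotypes overlapped. This difference became -8.3 without HOM replicate 2 (exact permutation p = 0.8).

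**Figure D4:**
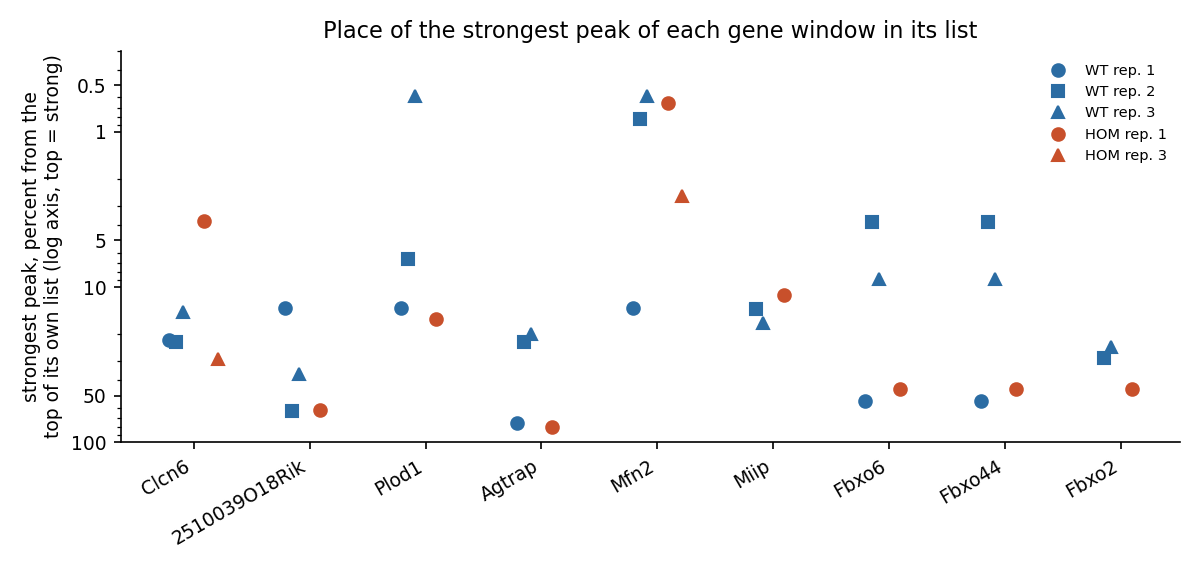
Place of the strongest peak of each gene window in its own list, in percent from the top by the authors' fold (log axis, strong at the top), for the 5 libraries with peaks (blue WT, red HOM), with genes ordered by distance from the interval. Mfn2 lies at 0.583% to 2.58% in 4 libraries and at 13.7% in WT replicate 1, and the Plod1 point at 0.583% is the Mfn2 peak of WT replicate 3.

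Across the 9 genes, every WT library was above every HOM library in covered share for 3, namely 2510039O18Rik, Agtrap and Fbxo6, and the reverse held for 0. Of the 12736 protein-coding genes with a peak in at least 1 list, 8.06% showed the first pattern and 0.196% the second. The median difference, HOM minus WT, was -18.4 bp per Mb over the 9 genes and -8.19 over all genes tested, and it was positive for 2 of the 9 genes and for 1661 of the 12736. With 3 libraries against 3 the smallest exact permutation p is 0.1, so no gene could pass 0.05, and the smallest adjusted p over all genes was 0.856. Without HOM replicate 2 the counts were 3 genes with WT above (8.32% of all genes) and 2 with HOM above, Clcn6 and Mfn2 (4.06% of all genes). With the other 5 lists at equal peak number, WT was above for Fbxo6 and Fbxo44, which rest on the same peak (7.66% of all genes), and HOM was above for Clcn6 alone (5.71% of all genes). The count with WT above was 0 of 9 when only the stronger 50% of each list was used (6.3% of all genes), with a −log10 q of at least 5 (4.25%) and with every list at 1462 peaks (4.04%). Between the 2 libraries with many Y peaks, WT replicate 1 and HOM replicate 1, the difference was -17.2 for 2510039O18Rik, -14.1 for Agtrap and -45.3 for Fbxo6, and it was 167 for Clcn6 and 129 for Mfn2. Among the other 4 libraries it was -17.9, -23.4 and -20.7 for the first 3 genes, and -36.2 for Clcn6 and -80.6 for Mfn2, with HOM replicate 2 among them. Bulk nuclei cannot tell fewer marked nuclei from a weaker mark in each nucleus.

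**Figure D5:**
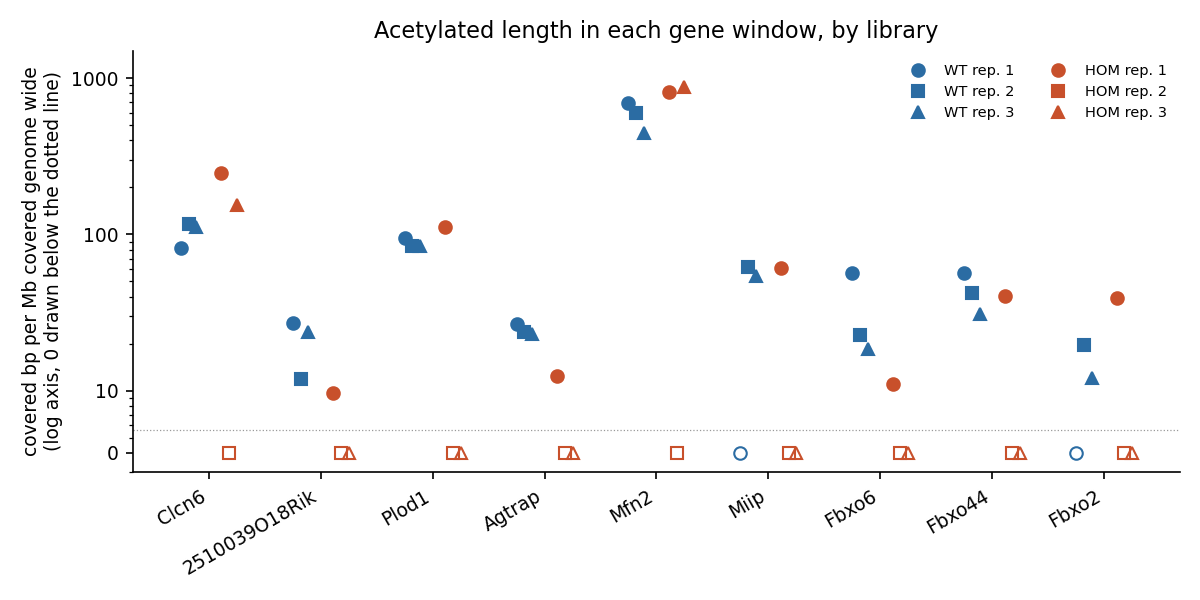
Covered share of each gene window, in bp of peak per Mb covered genome wide, by library (blue WT, red HOM; log axis, with open symbols below the dotted line for 0), with genes ordered by distance from the interval. Mfn2 is the highest gene in every library with peaks, at 444 to 883, and HOM replicates 1 and 3 lie above the WT libraries for Mfn2 and Clcn6 while WT lies above for 2510039O18Rik, Agtrap and Fbxo6.

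Of the 49 peaks of HOM replicate 1 in the 9 windows, 32.7%, 75.5% and 89.8% overlapped a peak of WT replicate 1, 2 and 3 by at least 1 base, and genome wide the shares of its peaks were 30.1%, 76.1% and 89.7%. Of the 14 peaks of HOM replicate 3, 57.1%, 92.9% and 100% did, with 49.7%, 90.8% and 95.7% genome wide. The shares rose with the length of the WT list, in the windows as in the whole genome. The 3 regions found in HOM only were all from HOM replicate 1, at chr4:147884363-147884532 in Mfn2, chr4:148007596-148007931 in Clcn6 and chr4:148167482-148167648 beyond Fbxo2.

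Clcn6 and Mfn2 each had a peak in 5 libraries, and Clcn6, the nearer, was taken as the pattern to look for elsewhere. Over 3143 genes farther than 250 kb from the interval with a peak in the same 5 libraries, likeness was the summed absolute difference in the percent from the top of the strongest peak. The most similar were Elp4 and Immp1l on chromosome 2, with a sum of 11.1 percentage points and identical values, and Canx on chromosome 11, with 12.4. The WT values of Clcn6 in this comparison are those of its peaks inside the interval.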

How the data were processed

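H3K27ac CUT&RUN peak lists of 3 WT and 3 HOM libraries were analysed, grouped by their titles. BWA, MACS2 and the build mm10 are named by the submitters' processing notes, with no versions given. The authors deposited 1 list per library, with no pooling of replicates, in the columns of a narrow peak file. For each peak the deposited values are a fold enrichment (a ratio at the summit), a score, and −log10 p-value and −log10 q-value columns, all the authors' own, and they served here to rank and filter peaks inside 1 list at a time. Peak callers find more and wider peaks in deeper libraries, so list length and peak width may follow depth, which the lists do not give.

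Gene bodies came from RefSeq for GRCm38.p6 (9 of 9 symbols matched), and starts and sequences from its promoter table. Positions are 1-based. Covered bp in the gene body with 5 kb on each side, per Mb covered genome wide, was compared by a two-sided exact permutation test over 20 assignments of libraries, run on 12736 protein-coding genes and adjusted by Benjamini-Hochberg. Whether each library is a separate mouse is not stated in the labels, so a p-value reflects spread among these samples alone, possibly technical spread. The genes and marker lists were chosen with earlier results of these data known. The genes named were the 9 neighbours, Nppa, Nppb, and the 3 genes most like the neighbour with peaks in the most libraries. Promoters were printed for genes with a peak within 1 kb of a start in at least 4 libraries, a reading of the planned "most libraries" set after the data were seen, and Clcn6 was added. Alternatives were other flanks (0, 2 and 10 kb), the interval left out, unscaled bp, the stronger 50% of peaks, lists of equal length (1462 peaks in 6 libraries, 15184 in 5), a −log10 q of at least 5, each library left out, the replicate block, libraries with many or few Y peaks, and ranks by width or −log10 q. On simulated data, covered length (200 trials) and permutation p (50 trials) gave 0 mismatches. Software was scipy 1.17.1, pandas 2.3.3 and numpy 2.4.6, with plots from matplotlib 3.10.9, under Python 3.11.15.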

Additional observations from a re-analysis of the deposited data

How the results depend on the processing

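Under the alternatives 22 values turned, 29 moved and 187 did neither, where a count moves when it changes by more than 1.5 times. Some of the 187 could not change, since the replicate block keeps the mean difference and leaving out the interval touches the Clcn6 window alone. Ranking by −log10 q gave the same medians as ranking by fold. Of the 29, 26 are counts and 3 are places of the strongest peak, in percent from the top as the median over lists, which moved when peaks were ranked by width instead of fold. They went from 21.8 to 11.1 for Clcn6, from 49 to 73.8 for 2510039O18Rik and from 10.1 to 2.74 for Plod1. The cause was not tested. Significance cannot be read from an unturned sign, because 0.05 is out of reach for every test run. The depth of the libraries is unknown, and at equal peak number the lists still differed in covered length (4.54 to 24.4 Mb) and in lowest −log10 q (1.2 to 10.7). Differences are HOM minus WT in bp per Mb unless stated. Clcn6 (31.6 in the main setting) turned to -1794 bp when not scaled and to -36.2 among libraries with few Y peaks, and leaving out 1 library gave -25.6 to 98.7. Plod1 (-51.1) turned to 23.9 with 10 kb flanks and to 15.2 between the libraries with many Y peaks. Mfn2 (-10.7) turned to 37.7 and 20.2 with flanks of 0 and 2 kb, 109 with a −log10 q of at least 5, 38.6 in 5 libraries at equal length and 129 between the libraries with many Y peaks. Leaving out 1 library gave -168 to 274 for Mfn2, turning without WT replicate 1 (46.1), WT replicate 2 (0.144) or HOM replicate 2 (274). Miip (-18.4) turned to 1.22 with no flank, 15.9 at equal length and 60.8 between the libraries with many Y peaks. Fbxo2 (2.51) turned to -12 with the q filter, -26.4 with 10 kb flanks, -206 bp when not scaled and -15.8 among libraries with few Y peaks, and leaving out 1 library gave -10.5 to 9.03. 2510039O18Rik, Agtrap, Fbxo6 and Fbxo44 did not turn under any alternative that gave a value, but their genotypes were not always apart. They overlapped for Fbxo44 already in the main setting and for Agtrap when not scaled. For 2510039O18Rik they overlapped with flanks of 0 and 2 kb and at equal length. With the stronger 50% of peaks, the q filter or the shortest lists, none of these genes had every WT library above every HOM library.

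Genes with every WT library above every HOM library numbered 3 of 9 and 1027 of all tested (8.06%). Percentages in this paragraph are shares of all genes tested under the same setting. With the stronger 50% of peaks these were 0 and 665 (6.3%), with lists limited to the shortest 0 and 74 (4.04%), and with the q filter 0 and 402 (4.25%). Among libraries with few Y peaks, 2 against 2, they were 7 and 7383 (58.3%). Over all genes they were 543 (7.66%) at equal length. Leaving out 1 library gave 3 to 5 and 1059 to 4655 (8.32% to 36.6%). The 4655 came without WT replicate 1, and without HOM replicate 1 the counts were 5 and 2499 (19.7%). The reverse pattern (0 of 9 and 25 of all, 0.196%) gave 1 and 405 (5.71%) at equal length. Over all genes it gave 0 when not scaled, 12 (0.114%) with the stronger 50%, 10 (0.546%) with the shortest lists, 12 (0.127%) with the q filter and 169 (1.34%) with few Y peaks. Leaving out 1 library gave 0 to 2 and 29 to 517. Both highest values came without HOM replicate 2. Fewer libraries make either pattern easier to meet. Between the libraries with many Y peaks, 1 against 1, the pattern has no meaning and its counts are not given. The paired fit with a replicate block, on differences between same-numbered libraries with a smallest p of 0.25, gave 4 and 1784 (14%) with WT above and 0 and 52 (0.408%) with HOM above. Deviations of same-numbered libraries from the mean of their genotype correlated at -0.00, -0.05 and -0.26 over 12736 genes. With 3 lists of very unequal length per genotype, these values cannot tell whether same-numbered libraries were handled together. No value could be given for Agtrap and Fbxo2 at equal length, for 7 genes with the shortest lists, or for Fbxo2 with no flank, where no list had a peak.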
